A study of Mus musculus with 12 samples.

Results

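The rows described here are 33 of the 24552 gene rows of a count table from mouse bone-marrow-derived macrophages, which held almost no counts in unstimulated cells and many after LPS with IFN-γ. Rows were chosen by these count sums. A row was taken where its counts over the 6 stimulated (M1) libraries summed to 100 or more and its counts over the 6 unstimulated (M0) libraries to at most 5% of that sum. Of 57 such rows, 24 were set aside by symbol, among them interferon-induced GTPases, chemokines and other well known targets of these stimuli, which left 33. The drop went by symbol alone, so related genes under other symbols may remain. The groups were wild-type (WT) M0, WT M1, Gpr31b knockout (KO) M0 and KO M1, with 3 libraries in each. All macrophages were grown from bone marrow, and the M1 cells were M0 cells given LPS and IFN-γ. The labels used here give no age, sex, strain, dose or time, do not say which part of Gpr31b is missing, and do not say whether the libraries of a group came from separate mice. All p-values therefore measure the spread between these libraries, which may be technical.

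LPS, a part of the outer membrane of Gram-negative bacteria, is sensed by TLR4 and activates NF-kappa B and AP-1 factors. IFN-γ acts through its receptor and JAK kinases, and GAS and ISRE elements are known from the promoters of interferon-responsive genes. Together these stimuli give macrophages their classical proinflammatory state, with antigen presentation, oxidative killing and cytokine release. Gpr31b encodes GPR31, a G protein-coupled receptor.

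The libraries were strand-specific and held 372878 to 585465 counts each, and libraries of the same group had correlations of 0.884 to 0.937 over rows on the log2 CPM scale. CPM here means counts divided by the TMM-adjusted library size and put on a common scale. The Gpr31b row held 6 counts in WT M1 and 0 in the other 3 groups, which is too few to check the genotypes. All 10 macrophage markers held counts. Their summed level was 475 to 518 CPM in WT M0 and 387 to 525 in WT M1. In KO it was 324 to 639 CPM in M0 and 348 to 553 in M1. Of the 9 tested in edgeR, 4 were called higher and 1 lower in M1 in WT, and 5 and 2 in KO. All 33 rows matched an annotated gene (GENCODE M21, build GRCm38), 32 of them protein-coding and 1, Gm11978, a transcribed processed pseudogene. Each value below belongs to a row. Where a row has a neighbour on the opposite strand, the source of its reads cannot be read from the table. In bulk RNA, more cells with a transcript and more transcript per cell cannot be told apart.

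Promoter sequences (RefSeq, build GRCm38.p6, positions -250 to 50 around the start) were found for 27 of the 33 rows. They were searched on both strands for an ISRE (the interferon-stimulated response element, by its consensus with 2 free positions), a GAS (TTCNNNGAA), an AP-1 site (TGANTCA) and the kappa B consensus, elements of the factors that LPS and IFN-γ act through. The 6 rows with a match are shown, since they are the ones in which the letters of such an element occur, and capitals mark the match. Lgals9 (chr11:78984875-78985174, minus strand) and Sod2 (chr17:13007589-13007888, plus strand) are shown whole. Procr (chr2:155751038-155751094, plus), Mrpl14 (chr17:45686314-45686373, plus), Jdp2 (chr12:85599768-85599826, plus) and Fundc1 (chrX:17572136-17572195, minus) are shown around the match.
Lgals9: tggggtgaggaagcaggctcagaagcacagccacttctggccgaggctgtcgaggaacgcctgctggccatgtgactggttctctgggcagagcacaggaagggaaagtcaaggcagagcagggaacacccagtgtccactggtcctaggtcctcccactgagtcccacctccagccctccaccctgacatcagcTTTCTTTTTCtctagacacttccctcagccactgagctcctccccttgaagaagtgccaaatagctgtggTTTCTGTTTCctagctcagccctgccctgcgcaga
Sod2: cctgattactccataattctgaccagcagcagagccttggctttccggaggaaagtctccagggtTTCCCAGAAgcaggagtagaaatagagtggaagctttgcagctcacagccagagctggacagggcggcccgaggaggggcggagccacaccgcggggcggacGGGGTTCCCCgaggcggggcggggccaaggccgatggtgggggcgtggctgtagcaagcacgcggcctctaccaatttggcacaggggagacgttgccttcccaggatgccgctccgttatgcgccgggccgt
Procr: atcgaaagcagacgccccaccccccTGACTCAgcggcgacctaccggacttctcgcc
Mrpl14: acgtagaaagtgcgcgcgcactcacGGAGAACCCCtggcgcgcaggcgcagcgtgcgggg
Jdp2: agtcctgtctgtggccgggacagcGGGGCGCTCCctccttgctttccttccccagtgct
Fundc1: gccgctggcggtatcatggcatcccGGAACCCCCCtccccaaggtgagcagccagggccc

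Counting the first transcribed base as 1 and the base before it as -1, the ISRE matches of Lgals9 lay at -55 to -46 and at 16 to 25, both on the strand opposite to the printed one. In Sod2 the GAS match lay at -185 to -177 and the kappa B match at -83 to -74. The AP-1 match of Procr lay at -154 to -148. The kappa B matches of Mrpl14, Jdp2 and Fundc1 lay at -10 to -1, -226 to -217 and -163 to -154. An ISRE, a GAS and an AP-1 match each occurred in 1 of 27 rows (3.70%), against 3.99%, 9.55% and 8.97% of all 27025 genes with a promoter in the same sequence set. A kappa B match occurred in 4 of 27 rows (14.8%), against 9.55% of all genes and 11.8% of those with 100 or more M1 counts. A match of letters is a description and not a binding site, and 21 of the 27 rows had none of the 4 elements in this window.

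Together the 33 rows held 17029 counts in M1 and 307 in M0. In M0 they took 0.00903% to 0.0144% of a library, against 0.604% to 0.725% in WT M1 and 0.600% to 0.639% in KO M1. Of the 198 M0 values, 131 were 0 and 6 were over 10, and between 9 and 13 of the rows held a count in any M0 library. The Sp110 row alone held 142 of the M0 counts, and the other 32 rows held 165. Bcl2l14, A530032D15Rik, Mrpl39 and Procr were at 0 in all 6 M0 libraries, 13 rows had 1 to 3 counts there, 12 had 4 to 10 and 4 had over 10. These levels chose the rows, so the difference between M0 and M1 is given as a description only.

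**Figure D1:**
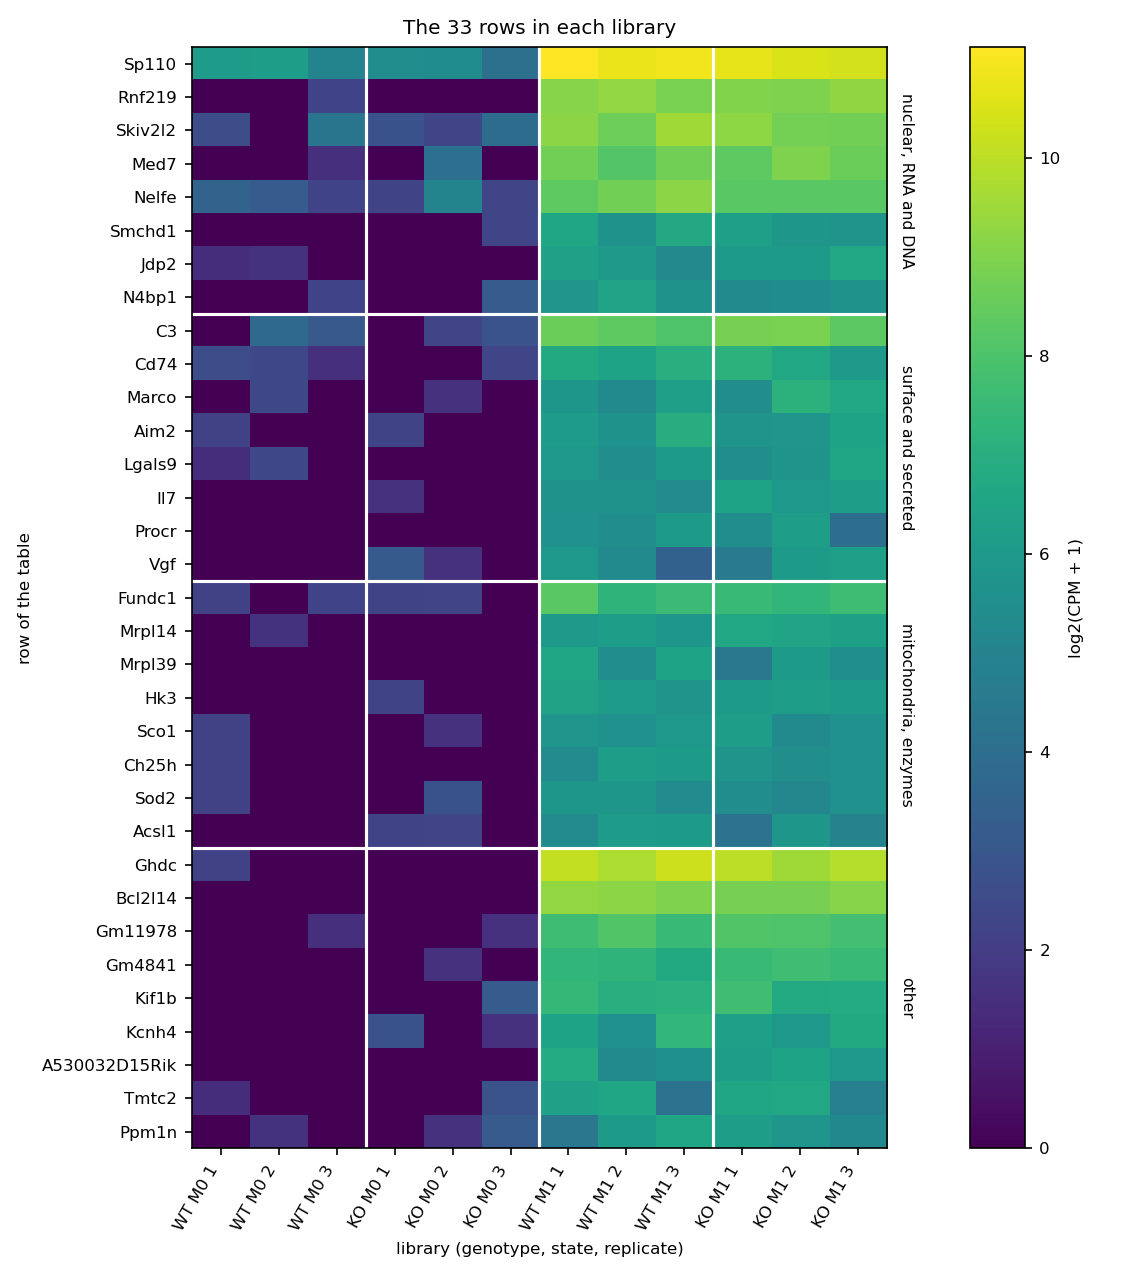
Level of each of the 33 rows in each of the 12 libraries, as log2(CPM + 1), with rows ordered by role and libraries by group. Most M0 cells are at or near 0, whereas each row has counts in all 6 M1 libraries, from 3 to 1111 in a library.

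All 33 rows were called higher in M1 in both genotypes, with 48.8% of the 2333 tested rows called in WT (25.7% higher) and 47.6% in KO (25.2% higher) by edgeR at an adjusted p under 0.05. Since the rule used this contrast, nothing is read from it. The fitted log2 differences ran from 4.69 to 11.00 in WT with a median of 6.28, and from 3.61 to 11.65 in KO with a median of 5.97. Fitted values of rows at 0 in M0 depend on a small added count. For the 12 rows at 0 in all WT M0 libraries, folds taken against 3 counts over the group were at least 21.4 to at least 308. For the 10 rows at 0 in all KO M0 libraries they were at least 22.1 to at least 451. These bounds cover counting error in the group at 0 only and take counts as independent. Of the rows' counts from 1 to 12, 58.9% were even (73 counts), against 60.9% of all such counts, so counts may not be independent and the bounds may be too high.

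Near the limits of the rule, counts in M0 and M1 were as follows. Just inside the limit of 5% lay Ppm1n, with 6 counts in M0 and 120 in M1, N4bp1 with 6 and 121, and Sod2 with 5 and 107. Just outside lay Ctsc with 20 and 386 (5.18%), Prdx5 with 10 and 189 (5.29%) and Klf3 with 67 and 1235 (5.43%). At the limit of 100 M1 counts, Acsl1 with 103, Procr with 107 and Sod2 with 107 lay inside, and Cenpl with 97, Efna3 with 96 and Clic5 with 95 lay outside.

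**Figure D2:**
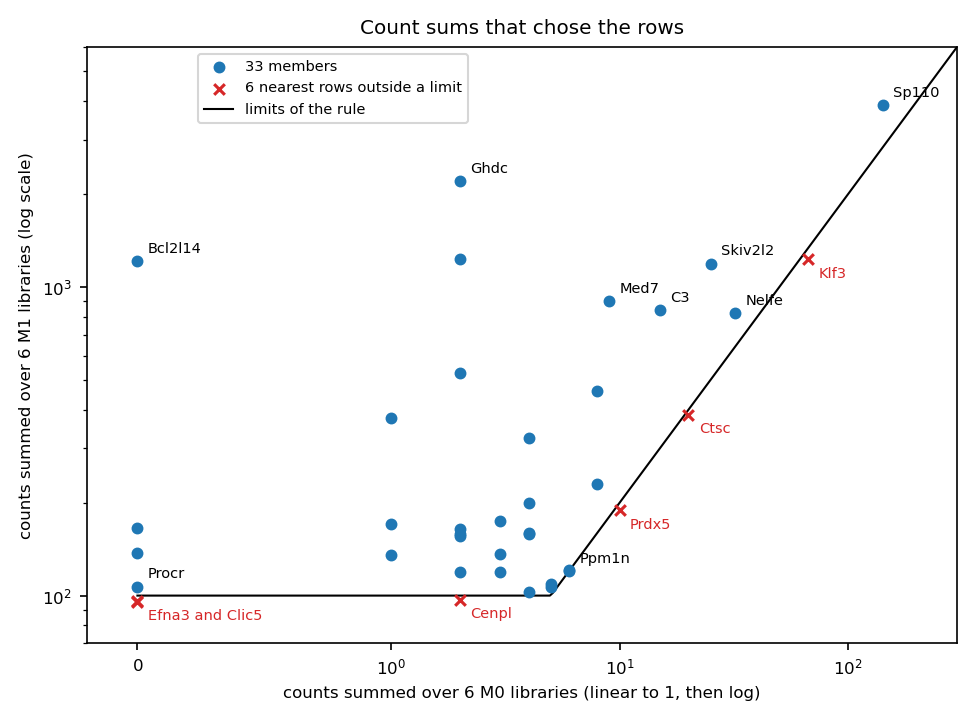
Sum of counts over the 6 M1 libraries against the sum over the 6 M0 libraries, for the 33 rows (dots) and the 6 nearest rows outside a limit (crosses), with the limits of the rule as a line. The M1 axis is a log scale and the M0 axis is linear to 1 and log beyond. Sp110 lies highest in both sums, and Ppm1n lies on the limit of 5%.

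Levels were uneven among the rows. The median M1 sum was 166 counts, 9 rows had 500 or more and 19 had under 200. The 5 highest rows, Sp110, Ghdc, Rnf219, Bcl2l14 and Skiv2l2, held 57.1% of the rows' M1 counts, and Sp110 alone held 22.8%. Values below are for libraries 1, 2 and 3 of a group in that order, means carry the SD over the 3 libraries (n = 3), and genotype differences are log2 KO minus WT from the edgeR fit with SE. Every adjusted p is over all tested rows.

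Rows for nuclear proteins and nucleic acid handling numbered 8 and held 8480 of the M1 counts. The highest was Sp110 (chromosome 1, 85576899 to 85598817, minus strand), a nuclear body protein that interferon induces. Sp110 stood at 2233, 1755 and 1876 CPM in WT M1 and at 1667, 1456 and 1302 CPM in KO M1, against 40, 34 and 17 counts in WT M0 and 22, 21 and 8 counts in KO M0. All 3 KO M1 libraries lay below all 3 WT M1 libraries, with means of 1475 ± 183 and 1955 ± 248 CPM. The difference was -0.41 (SE 0.19, 95% interval -0.80 to -0.02), with an unadjusted p of 0.0409 and an adjusted p of 0.681 in edgeR, so it was not called. In M0 the Sp110 row summed to 91 counts in WT and 51 in KO, a difference of -0.77 (SE 0.31) with an unadjusted p of 0.0217 and an adjusted p of 0.676 in edgeR. The interaction of genotype with stimulation was 0.36 for Sp110 (unadjusted p = 0.326 in edgeR). Exons of G530012D18Rik overlap those of Sp110 on the opposite strand by 392 bases. The Sp140 gene of the same family starts 1561 bases away, and the Sp140 row had M0 sums of 41 in WT and 29 in KO and M1 sums of 63 in WT and 75 in KO.

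Nelfe (chromosome 17, 34850391 to 34856372, plus strand) encodes a subunit of the negative elongation factor, which holds RNA polymerase II near the start of genes. Its row stood at 332, 426 and 586 CPM in WT M1 and at 306, 313 and 305 CPM in KO M1, against 6, 4 and 2 counts in WT M0 and 2, 16 and 2 in KO M0. The KO M1 libraries lay close together and all below the WT M1 libraries, with means of 308 ± 4.43 and 448 ± 128 CPM. The difference was -0.53 (SE 0.27, 95% interval -1.08 to 0.03, adjusted p = 0.740 in edgeR), and leaving out 1 library at a time moved it between -0.70 and -0.32. Nelfe lies 2 bases past the 3′ end of Cfb on the opposite strand, the gene of complement factor B. The Cfb row stood at 282 ± 9.45 CPM in WT M0 and 331 ± 53.3 in WT M1, and at 279.99 ± 27.2 in KO M0 and 309 ± 36.6 in KO M1, and was not called in either genotype (edgeR, adjusted p = 0.304 in WT and 0.527 in KO).

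Skiv2l2, also named Mtrex (chromosome 13, 112867418 to 112927398, minus), encodes the helicase that feeds RNA to the nuclear exosome. It stood at 589, 405 and 732 CPM in WT M1 and at 603, 450.2 and 431 in KO M1, with M0 sums of 13 in WT and 12 in KO. The genotypes overlapped, with a difference of -0.22 (SE 0.27). An opposite-strand exon of Plpp1 overlaps its exons by 452 bases, and in WT the Plpp1 row stood at 149 ± 10.8 CPM before and 209.8 ± 37.6 CPM after stimulation, which was not called (adjusted p = 0.0689 in edgeR). Rnf219, named Obi1 in RefSeq (chromosome 14, 104477536 to 104522645, minus), encodes a ubiquitin ligase of DNA replication origins. Its row stood at 545, 640.4 and 472 CPM in WT M1 and at 517, 500.2 and 621 in KO M1, with M0 sums of 2 in WT and 0 in KO. Taken against 3 counts over the KO M0 group, the fold of this row in KO was at least 275, a description only. Rnf219 had one of the narrowest genotype intervals, -0.02 (SE 0.19, 95% interval -0.41 to 0.38), and no opposite-strand gene was found at it or ending near it. Med7 (chromosome 11, 46436925 to 46442721, plus), a subunit of the Mediator complex that links transcription factors to RNA polymerase II, stood at 436, 281 and 432 CPM in WT M1 and at 327, 503 and 399 in KO M1. Its M0 counts were 1 in WT and 8 in KO, all 8 in a single library. The genotypes overlapped at 0.09 (SE 0.29), and an exon of the lincRNA 2310031A07Rik lies opposite Med7 over 609 bases.

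Lower nuclear rows were Smchd1, a chromatin protein of X inactivation, Jdp2, a repressor that pairs with AP-1 proteins, and N4bp1, an inhibitor of NF-kappa B signalling. Smchd1 stood at 94.5, 51.3 and 103 CPM in WT M1 and at 77.3, 57.9 and 53.0 in KO M1. Jdp2 stood at 80.4, 63.4 and 36.6 CPM in WT M1 and at 65.4, 65.8 and 98.4 in KO M1. N4bp1 stood at 54.3, 90.6 and 49.9 CPM in WT M1 and at 38.6, 42.1 and 50.5 in KO M1. The genotypes overlapped in these rows, with differences of -0.41 (SE 0.50) for Smchd1, 0.33 (SE 0.49) for Jdp2 and -0.56 (SE 0.62) for N4bp1.

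Recognition, surface and secreted factors made up 8 rows with 1894 M1 counts, and C3 was the highest. C3 (chromosome 17, 57203970 to 57228136, minus), the central protein of complement, stood at 394, 326 and 266 CPM in WT M1 and at 458, 474 and 315 in KO M1. Its M0 counts were 0, 6 and 4 in WT and 0, 2 and 3 in KO. The genotypes overlapped in C3, with a difference of 0.33 (SE 0.24, 95% interval -0.17 to 0.82, adjusted p = 0.892 in edgeR), and no opposite-strand gene was found at it or ending near it. Cd74, the invariant chain that guides MHC class II molecules, stood at 109, 87.6 and 123 CPM in WT M1 and at 139.7, 100.05 and 63.1 in KO M1. Its difference was -0.08 (SE 0.41), and Tcof1 on the other strand ends 1103 bases away from Cd74.

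Marco (chromosome 1, 120474538 to 120505024, minus), a scavenger receptor that binds bacteria, had the highest positive genotype difference of the 33 rows. It stood at 58.3, 39.3 and 76.5 CPM in WT M1 and at 44.6, 142 and 101 in KO M1, with 2 counts in WT M0 and 1 in KO M0. Its lowest KO library lay within the WT range, and the difference was 0.73 (SE 0.51, 95% interval -0.31 to 1.77, adjusted p = 0.863 in edgeR). Leaving out 1 library at a time moved the Marco value between 0.33 and 1.04. Il7 (chromosome 3, 7569994 to 7613760, minus), a growth factor of lymphocytes, stood at 50.2, 51.3 and 39.9 CPM in WT M1 and at 86.2, 60.6 and 73.2 in KO M1. All KO M1 libraries lay above all WT M1 libraries in Il7, yet its interval spans 0 (0.63, SE 0.53, 95% interval -0.46 to 1.71, adjusted p = 0.893 in edgeR). Il7 shares 105 exon bases with Gm16685 on the opposite strand.

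Aim2 (chromosome 1, 173350879 to 173466040, plus), the sensor of cytosolic DNA that builds an inflammasome, stood at 68.3, 51.3 and 119.8 CPM in WT M1 and at 53.5, 55.3 and 85.8 in KO M1. It lies 2445 bases beyond the 3′ end of Ifi206 on the other strand, an interferon-induced family member whose promoter held an ISRE match at -40 to -31. Promoters were found for 8 of the 27 opposite-strand genes at or near the rows. Of these 8 genes, 1 held an ISRE match and 3 a kappa B match. Lgals9 (chromosome 11, 78962974 to 78984946, minus), encoding the secreted lectin galectin-9, stood at 60.3, 42.3 and 66.5 CPM in WT M1 and at 44.6, 52.7 and 93.3 in KO M1. It lies 2720 bases past the 3′ end of Nos2, the inducible nitric oxide synthase, whose row had sums of 1 in M0 and 121 in M1 for WT and of 0 and 142 for KO. The ISRE matches printed above are in the Lgals9 promoter itself. Procr, the endothelial protein C receptor, stood at 48.2, 42.3 and 66.5 CPM in WT M1 and at 44.6, 73.7 and 15.1 in KO M1. Vgf, a precursor of secreted neuropeptides, stood at 60.3, 39.3 and 9.98 CPM in WT M1 and at 23.8, 65.8 and 75.7 in KO M1, and its WT replicate 3 value rests on 3 counts, the lowest of any row in M1. The genotypes overlapped in these 4 rows, with differences of -0.28 (SE 0.52) for Aim2, 0.18 (SE 0.54) for Lgals9, -0.23 (SE 0.64) for Procr and 0.56 (SE 0.68) for Vgf.

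Rows for mitochondrial proteins and for enzymes of lipid and sugar metabolism numbered 8 and held 1371 M1 counts. Fundc1 (chromosome X, 17556564 to 17572325, minus), a receptor for the removal of mitochondria by autophagy, stood at 305, 148 and 193 CPM in WT M1 and at 178, 158 and 202 in KO M1. WT replicate 1 stood apart from the other 5 libraries, and the difference was -0.28 (SE 0.30). Mrpl14 and Mrpl39 encode proteins of the large subunit of the mitochondrial ribosome. Mrpl14 (chromosome 17, 45686322 to 45698495, plus) stood at 64.3, 72.5 and 56.6 CPM in WT M1 and at 98.1, 89.5 and 78.2 in KO M1, a difference of 0.45 (SE 0.46, 95% interval -0.49 to 1.39, adjusted p = 0.903 in edgeR) with no overlap between the genotypes. Mrpl39 (chromosome 16, 84717576 to 84735742, minus) stood at 94.5, 42.3 and 86.5 CPM in WT M1 and at 20.8, 65.8 and 45.4 in KO M1, a difference of -0.75 (SE 0.57, 95% interval -1.92 to 0.41, adjusted p = 0.893 in edgeR). So the mitoribosome rows differed in sign, and neither was called. Mrpl39, at 0 in every M0 library, lies 2331 bases past the 3′ end of Mir155hg, the host gene of a microRNA known in inflammation, whose row held 7 counts over all 12 libraries. Mrpl14 shares 106 exon bases with Tmem63b on the opposite strand.

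Sod2, the superoxide dismutase of mitochondria and a known LPS target, stood at 58.3, 57.4 and 39.9 CPM in WT M1 and at 44.6, 34.2 and 47.9 in KO M1. It lies on chromosome 17 from 13006846 to 13040063, which is 10951 bases from Gpr31b, the targeted gene. The Sod2 genotypes overlapped at -0.30 (SE 0.64, 95% interval -1.61 to 1.01), an interval wider than a 2-fold change in either direction. Hk3, a hexokinase of blood cells, stood at 84.4, 69.5 and 53.2 CPM in WT M1 and at 65.4, 71.1 and 65.6 in KO M1. Opposite it lies Unc5a with 34 shared exon bases, whose row had sums of 181 in M0 and 1781 in M1 for WT and of 115 and 1825 for KO. Ch25h, which makes an oxysterol from cholesterol, stood at 40.2, 75.5 and 66.5 CPM in WT M1 and at 53.5, 44.8 and 47.9 in KO M1. Sco1, a copper chaperone of cytochrome c oxidase, stood at 54.3, 48.3 and 59.9 CPM in WT M1 and at 71.3, 39.5 and 47.9 in KO M1. Acsl1, which activates long-chain fatty acids, stood at 40.2, 69.5 and 66.5 CPM in WT M1 and at 17.8, 57.9 and 30.3 in KO M1. The genotypes overlapped in all 4, with differences of -0.05 (SE 0.50) for Hk3, -0.30 (SE 0.58) for Ch25h, -0.04 (SE 0.58) for Sco1 and -0.71 (SE 0.64) for Acsl1.

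The remaining 9 rows were grouped as other or unassigned and held 5284 M1 counts, most of them in Ghdc and Bcl2l14. The group name does not mean that a role is unknown. Ghdc (chromosome 11, 100766032 to 100770957, minus) stood at 1103, 855 and 1224 CPM in WT M1 and at 1040.0, 732 and 939 in KO M1, against 2, 0 and 0 counts in WT M0 and 0 in every KO M0 library. Taken against 3 counts over the KO M0 group, the fold in KO was at least 451, a description since the rule used this contrast. The genotypes overlapped in Ghdc, and the difference of -0.23 had the narrowest error of the 33 rows (SE 0.17, 95% interval -0.59 to 0.12, adjusted p = 0.888 in edgeR). No opposite-strand gene was found at Ghdc or ending near it. On its own strand Stat5b, a signal transducer of cytokine receptors, ends 9774 bases away, and its row had sums of 5 in M0 and 77 in M1 for WT and of 4 and 64 for KO. Kcnh4, a potassium channel row 6090 bases to the other side, stood at 86.4, 48.3 and 163 CPM in WT M1 and at 77.3, 60.6 and 108 in KO M1.

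Bcl2l14 (chromosome 6, 134396318 to 134438736, plus), of the BCL2 family of cell death regulators, was the highest row with 0 counts in every M0 library. It stood at 643, 579.9 and 499 CPM in WT M1 and at 461, 461 and 555 in KO M1. Taken against 3 counts over the M0 group, the fold was at least 308 in WT and at least 248 in KO, a description only. The genotypes overlapped, with a difference of -0.23 (SE 0.18, 95% interval -0.59 to 0.14), and 4933406J09Rik lies opposite over 577 exon bases. A530032D15Rik, the other unassigned row at 0 in every M0 library, stood at 115, 39.3 and 46.6 CPM in WT M1 and at 74.3, 86.9 and 60.6 in KO M1, and lies 467046 bases from Sp110.

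Gm4841 (chromosome 18, 60268305 to 60273272, minus) held 0 counts in WT M0 and 1 in KO M0. In M1 it stood at 159, 148 and 106 CPM in WT and at 187, 211 and 184 in KO, so that all KO libraries lay above all WT libraries. The difference was 0.48 (SE 0.31, 95% interval -0.14 to 1.11, adjusted p = 0.842 in edgeR) and was not called. Kif1b, a kinesin motor, stood at 169, 129.9 and 136 CPM in WT M1 and at 208, 111 and 114 in KO M1. Gm11978, the pseudogene, stood at 201, 275 and 179.6 CPM in WT M1 and at 273, 266 and 225 in KO M1, and shares 101 exon bases with Ramp3 on the opposite strand. Tmtc2, a protein of the endoplasmic reticulum, was uneven between libraries in both genotypes, at 82.4, 93.6 and 16.6 CPM in WT M1 and at 95.1, 100.05 and 27.8 in KO M1. Ppm1n, of a protein phosphatase family, stood at 20.1, 66.5 and 93.1 CPM in WT M1 and at 74.3, 55.3 and 35.3 in KO M1. The genotypes overlapped in Kif1b, Gm11978, Tmtc2, Ppm1n, Kcnh4 and A530032D15Rik, with differences between -0.26 for Kcnh4 and 0.22 for Gm11978.

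**Figure D3:**
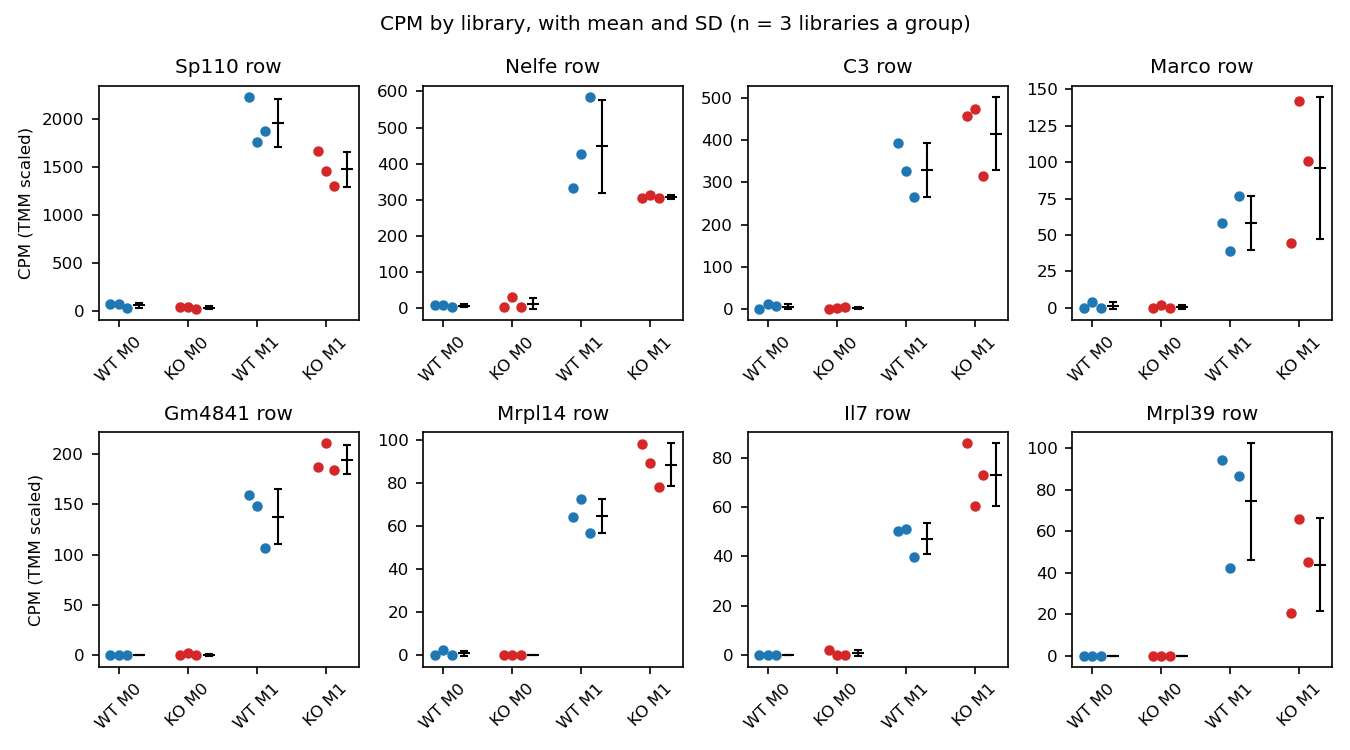
Level in CPM of 8 rows in each of the 12 libraries, 1 point per library by group, with a bar for the mean and SD of the 3 libraries of a group. In M1, KO points lie below all WT points for Sp110 and Nelfe and above them for Gm4841, Mrpl14 and Il7.

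The comparison of genotypes in M1, which the choice of rows did not use, asked whether loss of Gpr31b changed these rows after stimulation. None of the 33 rows was called by edgeR, against a background of 0% of the 2333 tested rows, and none by DESeq2 or limma-voom. Sp110 was the only row with an unadjusted p under 0.05, against 7.03% of tested rows. The genotype values ran from -0.75 in Mrpl39 to 0.73 in Marco with a median of -0.08, against a median of 0.00469 over all tested rows, and 21 rows lay below 0 and 12 above. Libraries of the genotypes did not overlap in 5 of 33 rows, against 10.8% of all tested rows. They were higher in KO in Gm4841, Mrpl14 and Il7 (5.96% of tested rows) and lower in Sp110 and Nelfe (4.84% of tested rows).

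Precision followed depth. In the 9 rows with 500 or more M1 counts the SE ran from 0.17 to 0.29, and in the 19 rows with under 200 from 0.46 to 0.68. The 95% intervals of 11 rows stayed inside a 2-fold difference, against 39.6% of all tested rows, and those of the other 22 reached past it in at least 1 direction. The coefficient of variation had a median of 24.1% in WT M1 and 20.5% in KO M1. It was lower in the rows with 500 or more counts (median 17.6%) than in those under 200 (median 30.7%).

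**Figure D4:**
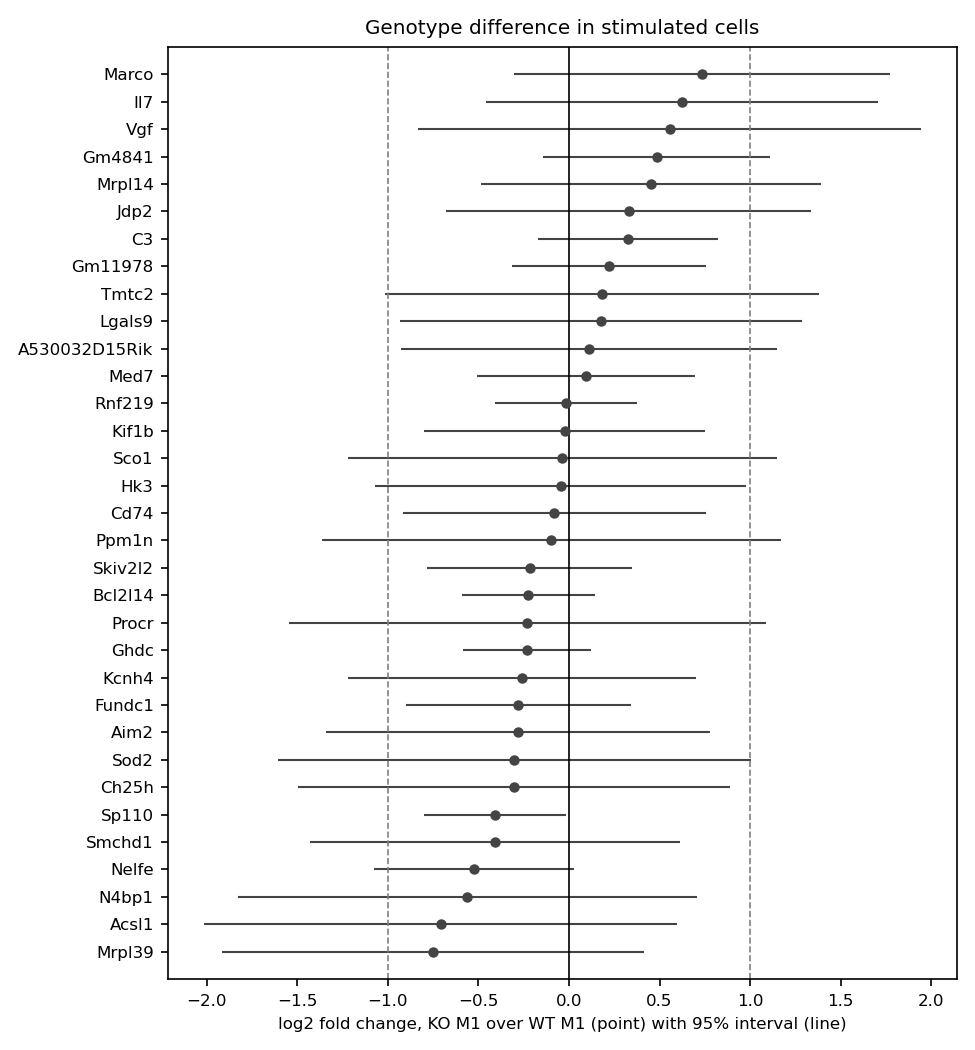
Log2 difference KO minus WT in M1 for each of the 33 rows with its 95% interval from the edgeR fit, ordered by value, with dashed lines at a 2-fold difference. Intervals of all rows but Sp110 span 0, and the Sp110 interval runs from -0.80 to -0.02.

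In M0 none of the rows was called between genotypes by edgeR, DESeq2 or limma-voom, against 0.0429% of tested rows in edgeR. The rule kept M0 counts low, so only a large difference in M0 or in the interaction could have been called. The median SE of the rows was 1.37 in M0 and 1.57 for the interaction. Unadjusted p-values under 0.05 in M0 were found for 5 rows, Sp110, Kif1b, Kcnh4, Vgf and Acsl1, against 6.47% of tested rows. Apart from Sp110 these rest on 4 or 5 counts in KO and 0 in WT, so their fitted sizes are not given. None was called for the interaction of genotype with stimulation by any of these tools, against 0% of tested rows in edgeR, and Kif1b, Kcnh4 and Acsl1 had an unadjusted p under 0.05, against 6.17%. These 3 rest on the same few M0 counts.

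The sums in the rule did not use the annotation around a row, but the symbols set aside included names ending in os, which mark opposite-strand transcripts, and rows such as Mir6381 opposite Gbp2 and Phrf1 opposite Irf7. Opposite-strand position therefore entered the choice, and the shares below are a description. Exons of an opposite-strand gene overlapped the exons of 12 rows (36.4%) by 20 or more bases, and 8 rows (24.2%) had no such exon but lay within 5000 bases past the 3′ end of an opposite-strand gene. With rows of both kinds counted, 14 lay past such an end, 6 of them with an opposite exon as well. The other 13 (39.4%), among them Ghdc, Rnf219, C3, Marco and Sod2, had neither. Of all 1242 annotated rows with 100 or more M1 counts, 78.3% had an opposite exon, 11.4% lay past a 3′ end alone and 10.4% had neither. Among rows at 0 in every library these shares were 12.5%, 15.6% and 71.9%. From 100 to under 500 M1 counts, 7 of 24 rows (29.2%) had an opposite exon, against 70.4% of all rows in that range. Over the 57 rows before symbols were dropped the shares with an opposite exon and with neither were 38.6% and 42.1%. By counts the picture differed: rows with an opposite exon held 51.2% of the M1 counts of the 33 rows, 92.5% of those of the 57 rows and 93.7% of those of all rows with 100 or more. The lower share of counts among the 33 thus came with the symbols set aside. These are counts of annotated positions, and the part of opposite-strand reads in any level was not tested.

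**Figure D5:**
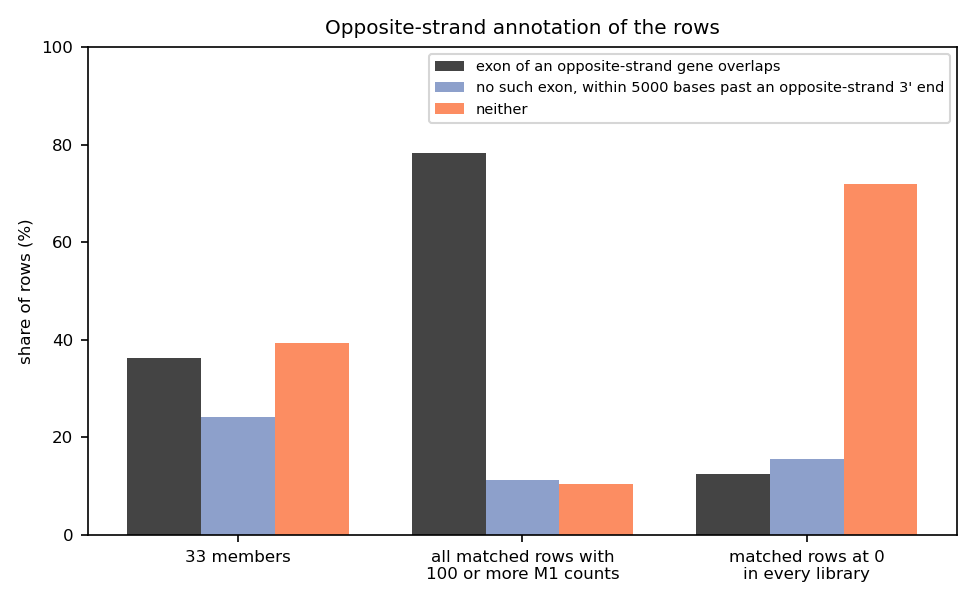
Bars give the percent of rows with an opposite-strand exon, past an opposite-strand 3′ end without such an exon, or with neither, for the 33 rows, for all annotated rows with 100 or more M1 counts and for annotated rows at 0 in every library. Opposite exons occur at 36.4% of the 33 rows and 78.3% of all rows with 100 or more M1 counts.

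The partner rows differed among themselves. Unc5a, opposite Hk3, and Nos2, beside Lgals9, held more counts in M1 than in M0 in both genotypes. Cfb beside Nelfe and Plpp1 opposite Skiv2l2 were not called with stimulation in either genotype by edgeR, and Ramp3 opposite Gm11978, Tmem63b opposite Mrpl14 and Mir155hg beside Mrpl39 held 10 or fewer in any group. By chromosome, 6 rows lay on chromosome 11 (18.2%, against 9.18% of rows with 100 or more M1 counts), 5 on chromosome 17 (15.2%, against 5.88%) and 4 on chromosome 1 (12.1%, against 5.31%). These are the rows of Ghdc, Kcnh4, Med7, Gm11978, Lgals9 and Sco1 on chromosome 11, of C3, Nelfe, Mrpl14, Smchd1 and Sod2 on chromosome 17, and of Sp110, A530032D15Rik, Marco and Aim2 on chromosome 1. They are the chromosomes with the most rows. Others lay below their share, such as chromosomes 2 (3.03%, against 8.45%), 7 (3.03%, against 8.05%) and 9 (no row, against 5.31%). Clustering was not tested.

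Lists of the stimulated pathways give the setting. Of 34 cytokines and enzymes that LPS induces, 10 had no count in any library and 8 were tested. Of these 8, 7 were called higher in M1 in both genotypes, Sod2 and Marco among them. Sod2 and Marco are among the 33 rows, so their calls follow from the rule. Of the other 6 tested, 5 were called higher in both genotypes. Of 59 interferon targets 31 were tested, and all 31 were called higher in both genotypes. Of 19 genes of interferon signalling 6 were tested, of which 4 were called higher in WT and 6 in KO. Of 33 genes of TLR4 and NF-kappa B signalling 2 were tested, Cd14 and Nfkb2, and both were called higher in both genotypes. No row of these lists was called between genotypes in M1 by edgeR. A row could pass the filter on low counts through M1 alone, so these counts are a description.

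Markers of other cell types were scarce, apart from the dendritic cell list in M1. T cell, B cell and NK cell lists had 1 gene each with any count, of 9, 8 and 7 with a row, and the neutrophil list had 2 of 9. The dendritic cell list had counts in 4 of 7 genes, with Flt3, Zbtb46 and Cd209a at 0. Its summed level was 29.4 to 50.9 CPM over the M0 libraries and 492 to 716 CPM over the M1 libraries. Only 2 genes of this list were tested in edgeR. In WT 1 was called higher in M1, and in KO 1 was called higher and 1 lower, so the sum does not describe the list as a whole. In M1 the macrophage list summed to 387 to 525 CPM in WT and 348 to 553 in KO. The part of dendritic cell markers in the levels of the 33 rows was not tested. Fibroblast markers had counts in 3 of 7 genes, erythroid markers in 2 of 6 and mast cell markers in 1 of 6.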

How the data were processed

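The authors' deposited table held raw counts per gene symbol for 12 libraries. Per the submitters' processing notes, Trimmomatic, FastQC, HTSeq, DESeq2 and the build mm10 were used, and the sources used here do not give the aligner, annotation and strand setting. RNA was polyadenylated and libraries were strand-specific, per the labels' protocols.

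Rows were chosen by summed counts, and tested in edgeR 4.0.16 (R 4.3.3) with filterByExpr on 4 groups (2333 rows), TMM and a robust quasi-likelihood fit to all 12 libraries, with Benjamini-Hochberg adjustment over all tested rows and a threshold of 0.05. All 33 rows passed the filter, through their M1 counts. On simulated M1 genotype differences, 36.8% of 95 rows changed 2-fold were recovered, and 76.5% of 34 at 100 CPM or more. Positions came from GENCODE M21 (24109 rows matched). Rows named were the 20 highest in M1, those at the limits of the rule, and those on or beside a gene list, and the others were added after their values were seen, so that all rows are accounted for. The rows and lists were chosen with earlier results of these data known. Alternatives were DESeq2 1.42.0, limma-voom (limma 3.58.1), other scaling and filters, blocks and libraries left out. Totals of 372878 to 585465 counts per library limit precision.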

Additional observations from a re-analysis of the deposited data

How the results depend on the processing

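The alternatives run were DESeq2, limma-voom, library size alone, no filter, replicate blocks and each library left out. None of the 33 rows was called between genotypes in M1, in M0 or for the interaction under any of them. In M0 and for the interaction, the low M0 counts that the rule requires left only large differences within reach of a call. All 33 were called higher in M1 in both genotypes under each, but the rule used this contrast, so nothing is read from that. Over all rows, calls between genotypes ran from 0 to 4 in M0, 0 to 1 in M1 and 0 to 3 for the interaction. The number of rows chosen was 20 with a limit of 2% on M0, 67 with 10%, 62 with 50 or more M1 counts, 14 with 200 or more and 50 with TMM-scaled values. Rows past a 3′ end and without an opposite exon were 5 within 2000 bases, against 8 within 5000. With rows that also have such an exon counted, they were 11 and 14.

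Deviations of same-numbered libraries correlated weakly. The values were 0.0588 to 0.0877 (WT M0 with M1), 0.0264 to 0.101 (KO M0 with M1) and -0.0191 to 0.146 (WT with KO). Low counts weaken such correlations, so they cannot decide whether same-numbered libraries share a culture. With the replicate block by number, 0 of the rows were called between genotypes. All 33 were called with stimulation, a contrast that the rule used. With a block by culture 0 were called for the interaction (3 of all rows).

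Uncalled M1 genotype values near 0 changed sign: with library size alone to 0.0254 for Rnf219, 0.0158 for Kif1b and 0.0057 for Sco1, and for Ppm1n to 0.26 with limma-voom and 0.12 with the replicate block. Leaving out each library gave -0.14 to 0.0768 for Rnf219, -0.10 to 0.21 for Med7, -0.51 to 0.0841 for Fundc1, -0.40 to 0.13 for Kif1b, -0.41 to 0.16 for Cd74, -0.60 to 0.23 for Kcnh4, -0.18 to 0.79 for A530032D15Rik, -0.54 to 0.0777 for Aim2, -0.28 to 0.57 for Tmtc2, -0.23 to 0.14 for Hk3, -0.22 to 0.35 for Lgals9, -0.53 to 0.35 for Ppm1n, -0.33 to 0.13 for Sco1 and -0.82 to 0.18 for Procr. The other 19 rows kept their sign. Vgf ran from 0.11 to 1.15, Acsl1 from -1.26 to -0.42, Mrpl39 from -1.16 to -0.45, Marco from 0.33 to 1.04, Jdp2 from 0.05 to 0.61, Skiv2l2 from -0.43 to -0.05, Gm11978 from 0.08 to 0.39, Ch25h from -0.54 to -0.13, N4bp1 from -0.74 to -0.27, Ghdc from -0.38 to -0.11, C3 from 0.17 to 0.49, Smchd1 from -0.67 to -0.27, Sod2 from -0.48 to -0.18, Bcl2l14 from -0.35 to -0.13, Nelfe from -0.70 to -0.32 and Gm4841 from 0.31 to 0.61, while Sp110 (-0.53 to -0.29), Mrpl14 (0.34 to 0.53) and Il7 (0.47 to 0.74) moved by under 1.5 times. The cause was not tested. Library size alone shifted the median of all rows under stimulation to -0.53 in WT and -0.46 in KO. Depth limits most of these rows: 19 held under 200 counts over the 6 M1 libraries.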
